A study of Mus musculus with 12 samples.

Results

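RNA of 9 genes for clotting and matrix proteins was followed in sorted mouse bone marrow macrophages across 12 RNA sequencing libraries. The genes were Thbs1, Fn1, F13a1, F10, F5, Vcan, Tgfbi, Cd47 and Plaur, picked by symbol from the 18467 genes of the deposited count table as matrix and coagulation genes of monocytes and macrophages, together with the thrombospondin receptor Cd47. All 9 passed the filter on low counts, which left 12882 genes for testing. In the study, E0771 mouse mammary tumour cells were given by caudal artery injection to female Albino B6 mice aged 8 weeks, and healthy mice served as controls. From either kind of marrow, cells carrying CD11b and F4/80 were sorted as general macrophages, and cells carrying VCAM1, CD163 and CCR3 as niche macrophages, the population the study ties to the erythroblastic niche. This gave 4 groups of 3 libraries, which the design text describes as coming from different mice. Because the titles use the name general macrophages for either sort, populations were assigned by the antigens sorted on. Replicates are numbered 1, 2 and 3, except in niche macrophages from normal marrow, where column numbers and title numbers differ and the libraries are called A, B and C.

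Thrombospondin 1, fibronectin and versican are large secreted proteins of the extracellular matrix, and monocytes and macrophages are among the cells that make them. Clotting runs through a cascade in which activated factor X, with factor V as its cofactor, turns prothrombin into thrombin, and thrombin turns fibrinogen into fibrin. The transglutaminase factor XIII, whose catalytic A subunit is encoded by F13a1 and is made by monocytes, macrophages and megakaryocytes, then crosslinks fibrin and also joins fibronectin to it. The urokinase receptor encoded by Plaur gathers plasminogen activation, which dissolves fibrin, at the cell surface. Most circulating clotting factors come from the liver, so the RNA in sorted marrow cells speaks only of what these cells transcribe.

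Library totals ran from 13687957 to 30332442 counts, so 3 counts amounted to between 0.109 and 0.243 CPM, the unit of level used here, which sets a count against the TMM-scaled library total. Summed macrophage marker RNA was lower in general than in niche libraries. The 12 markers summed to 293 to 480.2 CPM in general libraries. In niche macrophages they summed to 5686 to 6712 CPM in normal and 2542 to 4633 CPM in metastatic marrow. They include Vcam1 and Cd163, whose products the niche cells were sorted on. A set of 10 monocyte markers summed, in normal and metastatic marrow, to 11070.3 to 11878 and 14999.6 to 16513 CPM in general libraries. In niche libraries the sums were 4437 to 5717 and 8082 to 10498 CPM. Of these, Chil3 alone averaged 7479 and 12267.5 CPM in general and 4153 and 8525 CPM in niche libraries. For 14 neutrophil markers the sums were 16480.4 to 27163 CPM in general and 11563 to 14454 CPM in niche libraries. No macrophage, monocyte or neutrophil marker was at 0 in all libraries of a group. Megakaryocyte and platelet markers, relevant because platelets are rich in thrombospondin 1 and factor XIII, summed to 0.542 to 58.97 CPM in the general and 12.98 to 120.6 CPM in the niche libraries over 11 genes, with Gp1bb, Gp9 and Tubb1 at 0 in 3 of the 4 groups. In such bulk samples, fewer cells of a type and less RNA per cell cannot be told apart.

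Promoter sequences are shown for the 3 genes with the largest fitted differences among those with an entry in RefSeq (GRCm38.p6), where 7 of the 9 genes matched. F13a1 was lower in niche than in general macrophages, and Tgfbi passed that test in normal marrow only (edgeR adjusted p = 0.306 in metastatic marrow). Vcan had the largest fitted difference with metastasis, in general macrophages, which did not pass in edgeR (adjusted p = 0.755). Each sequence runs 5′ to 3′ and ends at or just before the start of transcription. Capitals mark GAGGAA, the core bound by the myeloid factor PU.1, or GGGCGG, the GC box, on either strand.
F13a1, chr13:37050245-37050494, minus strand: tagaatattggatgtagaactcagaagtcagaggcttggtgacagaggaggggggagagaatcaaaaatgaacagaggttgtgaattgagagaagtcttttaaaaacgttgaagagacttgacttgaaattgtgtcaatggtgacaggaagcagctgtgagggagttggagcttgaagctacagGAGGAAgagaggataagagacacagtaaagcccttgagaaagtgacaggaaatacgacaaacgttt
Tgfbi, chr13:56609336-56609522, plus strand: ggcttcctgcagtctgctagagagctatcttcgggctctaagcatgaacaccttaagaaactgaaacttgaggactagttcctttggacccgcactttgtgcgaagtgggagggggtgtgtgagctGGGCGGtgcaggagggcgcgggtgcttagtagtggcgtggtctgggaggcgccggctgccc
Vcan, chr13:89742513-89742762, minus strand: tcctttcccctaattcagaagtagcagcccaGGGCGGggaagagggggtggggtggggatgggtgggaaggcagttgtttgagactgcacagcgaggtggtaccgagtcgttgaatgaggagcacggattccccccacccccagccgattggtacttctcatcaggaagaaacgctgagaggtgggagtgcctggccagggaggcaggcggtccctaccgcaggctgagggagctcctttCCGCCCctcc
The F13a1 stretch held 1 PU.1 core and no GC box, with 42.8% G and C and 3 CpG dinucleotides. RefSeq has a second F13a1 start, at chr13:37049289-37049463, whose 175 bases held none of the motifs searched and 56.6% G and C, and it is not printed. Tgfbi had 1 GC box in 187 bases, 59.4% G and C and 9 CpG. Vcan had 2 GC boxes, 1 on each strand, with 62.4% G and C and 10 CpG. Across 32851 promoters, 23.3% of 250-base stretches hold GAGGAA and 32.7% hold GGGCGG, and GGGCGG is in 22.2% of the far 187 of those bases and 30.5% of the near 187. The Tgfbi stretch is the far part by the RefSeq start and lies directly before the GENCODE start. The medians there were 52.4% G and C and 6 CpG in 250 bases. The 3 other motifs searched on both strands, TGANTCA (the AP-1 site), TATAAA and CACGTG, were absent from these 3 stretches. A match describes the letters only and is not evidence of a bound factor.

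Thbs1, at chr2:118111876-118127133 on the plus strand of GRCm38, encodes thrombospondin 1, an adhesive glycoprotein that can activate latent TGF-beta. In general macrophages from normal marrow its level was 854, 825 and 819.8 CPM in replicates 1, 2 and 3. Those from metastatic marrow had 287, 242 and 275 CPM. Niche macrophages had 372, 420.1 and 299 CPM in normal marrow and 124, 139 and 77.3 CPM in metastatic marrow. No library of one group overlapped another group, and the order was general normal, niche normal, general metastatic and niche metastatic. The means were 833 ± 18.6, 364 ± 61.0, 268 ± 23.4 and 114 ± 32.3 CPM (SD, n = 3 each).

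Its difference with metastasis was among the values known when the genes were chosen and is therefore given as a description, without a p-value. Thbs1 was 3.11-fold lower in metastatic than in normal marrow among general macrophages, a log2 fold change of -1.63 ± 0.26 (SE). Among niche macrophages the log2 fold change was -1.68 ± 0.26, from the same fit of 4 group means. The difference between these effects was -0.04, with a 95% interval from -0.79 to 0.70. Leaving out any 1 of the 6 general libraries moved the first value only to between -1.68 and -1.56, but each time the gene no longer met the threshold of an adjusted p under 0.05 that it met with all libraries. The threshold among niche macrophages was not met without niche metastatic replicate 1, niche metastatic replicate 3 or niche normal replicate A, and the value ranged from -1.86 to -1.47 over the 6 fits that each left out 1 library.

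Cd47, at chr16:49800533-49915010, encodes a surface receptor for thrombospondin 1 that also signals through SIRPα on phagocytes. Of the 9 genes it was the steadiest. Levels were 1629, 1963 and 1640.1 CPM in general macrophages from normal marrow and 2182, 1902.5 and 1497 CPM in those from metastatic marrow. Niche macrophages had 1738, 1611.5 and 1490.5 CPM in normal marrow and 1761, 1813 and 1668 CPM in metastatic marrow. The 4 groups overlapped throughout. None of the 4 comparisons passed the test. Niche differed from general macrophages in normal marrow by -0.11 on the log2 scale (95% interval -0.51 to 0.28). With metastasis the change was 0.09 (-0.30 to 0.49) in general and 0.12 (-0.28 to 0.51) in niche macrophages.

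**Figure D1:**
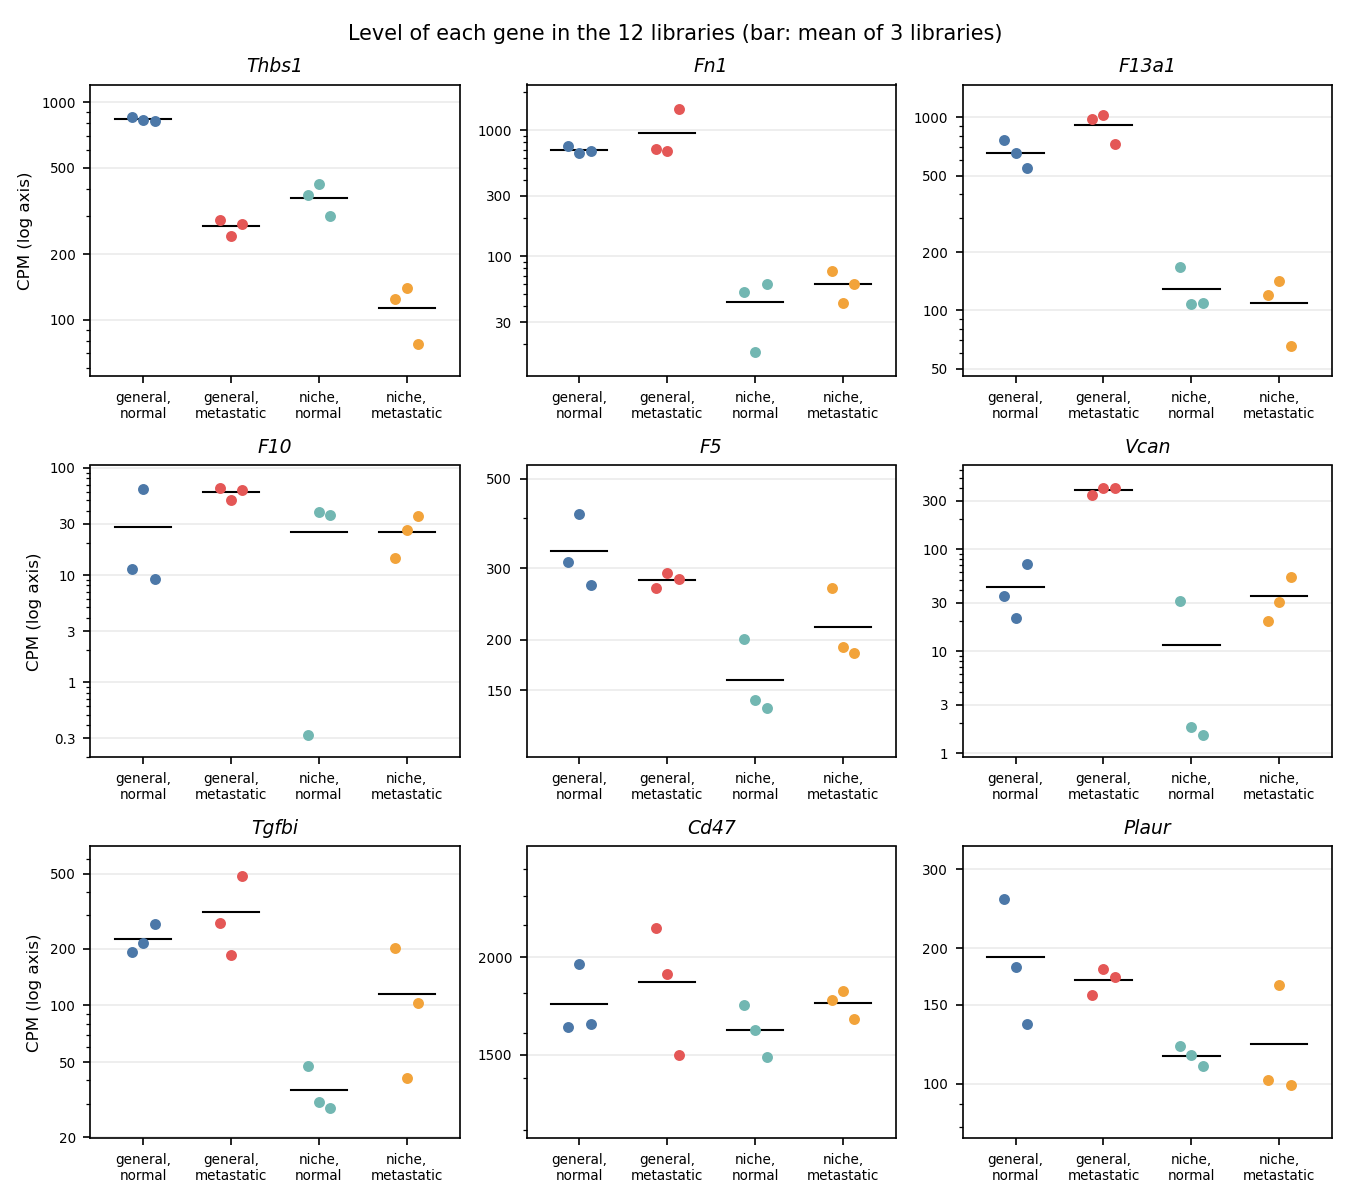
Level of each of the 9 genes in the 12 libraries, in CPM on a log axis, with points for libraries and bars for group means. The 3 libraries of each Thbs1 group stand clear of the other groups, whereas the Cd47 groups overlap between 1490.5 and 2182 CPM.

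Fn1, at chr1:71585520-71653200 on the minus strand, encodes fibronectin, which links integrins to collagen and fibrin. General macrophages from normal marrow had 741, 663 and 682 CPM, and those from metastatic marrow 702.5, 686 and 1471 CPM. Niche macrophages had 52.4, 17.4 and 60.1 CPM in normal marrow and 76.6, 42.2 and 60.5 CPM in metastatic marrow. Every niche library lay below every general library, while within a population the 2 kinds of marrow overlapped. The highest value, in general metastatic replicate 3, set that group's mean of 953 ± 449 CPM apart from the 695 ± 40.8 CPM of normal marrow.

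In normal marrow Fn1 was 16.1-fold lower in niche than in general macrophages, a log2 fold change of -4.01 ± 0.43 (SE), with an adjusted p of 1.44e-05 in edgeR's quasi-likelihood test. With limma-voom the log2 fold change was -4.32 and missed the threshold (adjusted p = 0.306). In metastatic marrow the difference, known when the genes were chosen, was -4.00 ± 0.43. With metastasis the log2 change was 0.45 (95% interval -0.33 to 1.24) in general and 0.47 (-0.33 to 1.26) in niche macrophages, and neither passed edgeR's test (adjusted p = 1.00 and 0.688). Without general metastatic replicate 3 the first of these was -0.01.

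F13a1, at chr13:36867178-37050244 on the minus strand, encodes the A subunit of factor XIII. General macrophages had 762, 656 and 549 CPM in normal marrow and 981, 1032 and 733 CPM in metastatic marrow. Niche macrophages had 168, 108 and 109.8 CPM in normal marrow and 119.8, 143 and 65.4 CPM in metastatic marrow. The lowest general library, at 549 CPM, exceeded the highest niche library, at 168 CPM, and the 2 marrows overlapped in either population. An antisense gene, Gm30489, shares exon sequence with F13a1 and had 0 to 182 counts per library against 1770 to 26896 for F13a1. Whether counting used strand is not given in the sources used here, so reads of the pair cannot be told apart.

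F13a1 was 5.09-fold lower in niche macrophages from normal marrow (log2 fold change -2.35 ± 0.30, edgeR adjusted p = 0.000136). In metastatic marrow the difference, also known at selection, was -3.07 ± 0.31, or 8.37-fold. The metastasis change was 0.48 (95% interval -0.12 to 1.09) in general and -0.24 (-0.84 to 0.37) in niche macrophages. These effects differed by -0.72 (-1.57 to 0.14), which did not pass the test (edgeR adjusted p = 0.663).

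F5, at chr1:164151838-164220277, encodes factor V, the cofactor of activated factor X. Levels were 311, 408 and 273 CPM in general macrophages from normal marrow and 268, 293 and 282 CPM in those from metastatic marrow. Niche macrophages had 201, 142 and 135 CPM in normal marrow and 268, 191 and 186 CPM in metastatic marrow. In normal marrow the niche libraries were all below the general ones, at a log2 fold change of -1.05 ± 0.28 that just missed the threshold (edgeR adjusted p = 0.0543). It passed without niche normal replicate A (-1.24, adjusted p = 0.0370), with DESeq2 (0.00320), with at least 10 counts in every library (0.00667), with robust dispersion (0.0409) and with library size only (0.0453). In metastatic marrow the highest niche library, at 268.2 CPM, lay just under the lowest general one, at 268.4 CPM, and the difference was -0.39 (95% interval -0.97 to 0.20). With metastasis the F5 value was -0.23 (-0.82 to 0.35) in general and 0.43 (-0.15 to 1.02) in niche macrophages, neither past the test. On leaving out 1 library the general value ranged from -0.35 to -0.052. A long noncoding gene, Gm16548, overlaps F5 exons on the opposite strand and had 0 to 221 counts against 2475 to 7714.

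F10, at chr8:13037308-13056676, encodes factor X and had the widest spread between libraries of the 9. General macrophages had 11.5, 63.9 and 9.19 CPM in normal marrow and 64.7, 49.8 and 62.5 CPM in metastatic marrow. Niche macrophages had 0.32, 39.1 and 36.4 CPM in normal marrow, the first of these from 4 counts, and 14.5, 26.3 and 35.5 CPM in metastatic marrow. Only in metastatic marrow did the 2 populations fail to overlap. No comparison passed the test, and the intervals were wide: the niche against general log2 fold change was -0.16 (95% interval -2.53 to 2.22) in normal and -1.21 (-3.62 to 1.19) in metastatic marrow. Without general normal replicate 2 the first of these turned to 1.30, and without niche normal replicate A to 0.43. With metastasis the F10 value was 1.07 (-1.34 to 3.47) in general and 0.01 (-2.37 to 2.39) in niche macrophages, and the first was 2.51 without general normal replicate 2 and 0.65 without general normal replicate 3.

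Plaur, at chr7:24462484-24475968, encodes the urokinase receptor. General macrophages had 257, 181.5 and 136 CPM in normal marrow and 158, 179.7 and 172.5 CPM in metastatic marrow. Niche macrophages had 121, 116 and 109 CPM in normal marrow and 102, 166 and 99.1 CPM in metastatic marrow. The niche libraries lay below the general ones in normal marrow, and overlapped them in metastatic marrow. The log2 fold changes, -0.73 ± 0.34 and -0.47 ± 0.34 (SE), did not pass the test (edgeR adjusted p = 0.260 and 0.927). They were -0.45 without general normal replicate 1 and -0.76 without niche metastatic replicate 2. With metastasis Plaur moved by -0.17 (95% interval -0.89 to 0.54) in general and 0.09 (-0.63 to 0.80) in niche macrophages.

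Vcan, at chr13:89655312-89742509 on the minus strand, encodes versican, a chondroitin sulfate proteoglycan that binds hyaluronan. General macrophages had 34.5, 21.3 and 71.9 CPM in normal marrow and 338, 401 and 395.5 CPM in metastatic marrow. Niche macrophages had 31.3, 1.79 and 1.51 CPM in normal marrow and 19.6, 30.2 and 53.6 CPM in metastatic marrow. All 3 general libraries from metastatic marrow stood far above the other 9 libraries, which overlapped among themselves.

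With metastasis Vcan was 8.88-fold higher in general macrophages (log2 fold change 3.15 ± 0.85), yet did not pass the test over all genes (edgeR adjusted p = 0.755). It passed with limma-voom (adjusted p = 0.0142) and when edgeR was fitted to these 2 groups alone (0.0166). Niche macrophages in metastatic marrow had 10.96-fold less than general ones (-3.45 ± 0.86, edgeR adjusted p = 0.0736). This passed when only those 2 groups were fitted (adjusted p = 0.00137), with limma-voom (0.00534) and with no low-count filter in edgeR (0.0184). Niche normal replicate A, with 31.3 CPM, moved each of the comparisons that use its group. In normal marrow the niche against general value went from -1.89 (adjusted p = 0.237) to -4.68 without it (0.000172). The niche metastasis change went from 1.59 (adjusted p = 0.406) to 4.37 (0.00963). The difference of the metastasis effects between populations was -1.56 (95% interval -3.90 to 0.77) and turned to 1.22 without that library.

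Tgfbi, at chr13:56609523-56639562, encodes a TGF-beta-induced matrix protein that binds integrins and collagen. General macrophages had 193, 214 and 270.4 CPM in normal marrow and 274, 184 and 483 CPM in metastatic marrow. Niche macrophages had 47.8, 30.6 and 28.4 CPM in normal marrow and 200.4, 41.1 and 103 CPM in metastatic marrow. The populations did not overlap in normal marrow and did in metastatic marrow. In normal marrow Tgfbi was 6.34-fold lower in niche macrophages (log2 fold change -2.67 ± 0.49, edgeR adjusted p = 0.00442), a call missed with limma-voom (adjusted p = 0.306). In metastatic marrow the difference was -1.45 ± 0.47 (edgeR adjusted p = 0.306), and from -2.13 to -1.01 on leaving out 1 library.

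Within niche macrophages Tgfbi was 1.69 ± 0.47 higher on the log2 scale with metastasis, which did not pass in edgeR (adjusted p = 0.278) and passed in DESeq2 (0.0225). Niche metastatic replicate 2, at 41.1 CPM, lay inside the range of normal marrow. On leaving out 1 library the change ran from 1.01, without niche metastatic replicate 1, to 2.09, without replicate 2. In general macrophages it was 0.47 (95% interval -0.49 to 1.44), and 0.0083 without general metastatic replicate 3.

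Set side by side in normal marrow, all 9 genes had a negative niche against general log2 fold change. Thbs1, Fn1, F13a1 and Tgfbi fell in niche macrophages, 4 of 9, where 0.97% of all tested genes were called lower. In 6 of 9, those 4 with F5 and Plaur, every niche library lay below every general library, against 8.78% of all tested genes. Calls over all genes numbered 318, and 176 to 184 without any 1 of the 3 general normal libraries. The median over the 9 was -1.20, beside 0.19 over all tested genes. Nothing is read from these counts of the 9 or from this median. Fn1 and F13a1 were chosen with the same population difference known in metastatic marrow. Thbs1 was at -1.20 ± 0.26 (SE, edgeR adjusted p = 0.0140). Its call was lost without niche normal replicate C or any 1 of the 3 general normal libraries, at adjusted p up to 0.0612, and the value ranged from -1.31 to -1.07 over the 6 fits without 1 library.

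**Figure D2:**
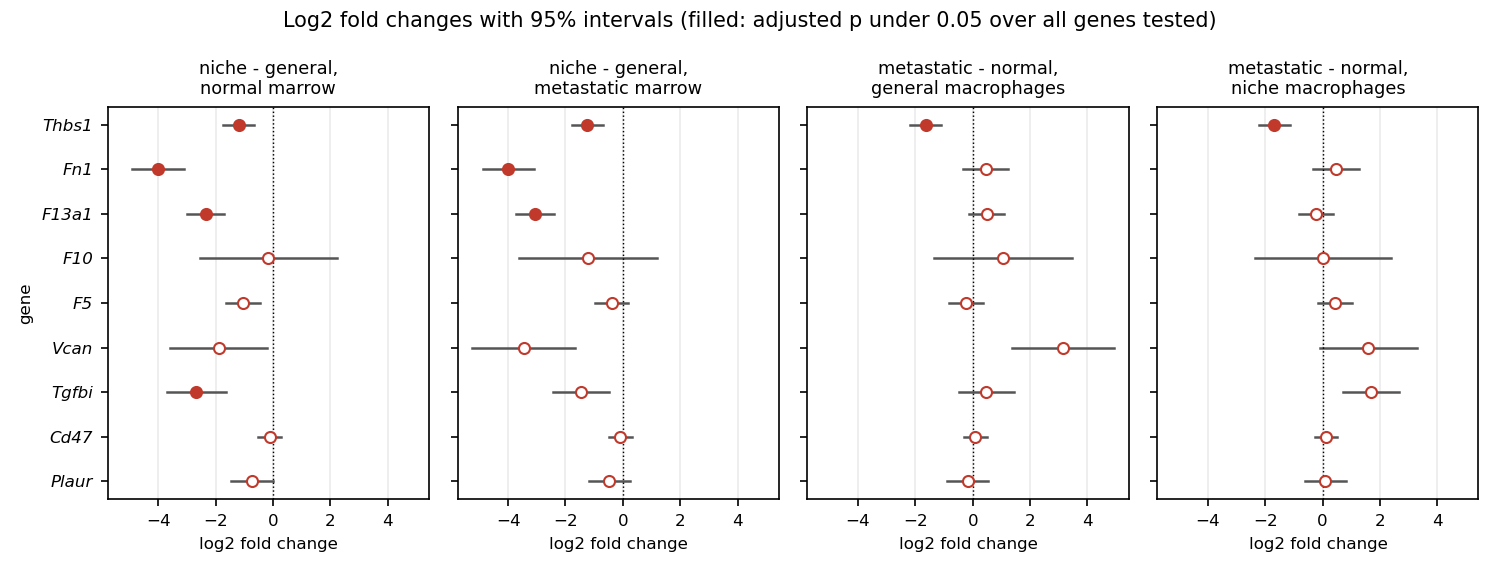
Log2 fold changes of the 9 genes in the 4 comparisons between 2 groups, with points for estimates and bars for 95% intervals from edgeR. Every niche against general estimate is negative (with library size only, that of Cd47 in metastatic marrow was 0.17), and with metastasis estimates lie on both sides of 0.

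In metastatic marrow, 3 of the 9 genes, Thbs1, Fn1 and F13a1, were called lower in niche macrophages, beside 0.256% of all tested genes. Fn1 and F13a1 in this comparison were known when the genes were chosen, so nothing is read from this count, nor from the count of genes without overlap and the median given next. Calls over all genes numbered 107 here, 66 without niche metastatic replicate 1 and 70 without general metastatic replicate 2. Thbs1 stood at -1.24 (95% interval -1.78 to -0.70), and its call was lost without general metastatic replicate 1 or niche metastatic replicate 1 or 3, with library size only (adjusted p = 0.0639) and with only the groups compared (0.0761). The Fn1 call was lost with limma-voom, at a log2 fold change of -3.94. The niche libraries lay wholly below the general ones for 6 of 9 genes, Thbs1, Fn1, F13a1, F10, F5 and Vcan, beside 8.85% of all tested genes. The median was -1.24, against 0.04 over all tested genes. Within this same marrow the monocyte markers Ccr2 and Ly6c2 were also lower in niche macrophages, by 2.99 and 1.75 on the log2 scale (edgeR adjusted p = 2.14e-05 and 0.000784). In normal marrow 4 of 10 monocyte markers (these 2 with Chil3 and Ace) and 6 of 14 neutrophil markers were called lower, and in metastatic marrow 2 and 5. Macrophage markers went the other way, with 8 of 12 called higher in normal and 7 of 12 in metastatic marrow, beside 1.5% and 0.574% of all tested genes. That list holds Vcam1 and Cd163, whose products the niche cells were sorted on, and Adgre1, which encodes F4/80. Without these 3, 5 of 9 were called higher in each marrow, and the 9 summed to 1109 to 2934 CPM in niche and 96.98 to 262 CPM in general libraries. Erythroid markers were also higher in niche libraries, with 4 of 9 called in normal (Hba-a2, Hbb-bs, Slc4a1 and Tfrc) and 2 of 9 in metastatic marrow (Hbb-bs and Slc4a1) and sums of 763 to 1946 against 84.7 to 307 CPM. Of 7 tested B and plasma cell markers 2, Pax5 and Jchain, were called higher in each marrow, with sums of 404 to 1376 against 18.7 to 63.8 CPM. The part of these markers' cells in the lower levels of the 9 genes was not tested.

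Between metastatic and normal marrow, 1 of the 9 genes, Thbs1, was called in general macrophages, beside 0.0155% of all tested genes, and 1, again Thbs1, in niche macrophages, beside 0.00776%. Nothing is read from these counts, since Thbs1 was chosen with those differences known. In general macrophages Vcan did not overlap on the higher side, beside 7.27% of all tested genes, and Thbs1 on the lower side, beside 5.64%. In niche macrophages Thbs1 alone of the 9 did not overlap, on the lower side, beside 7.11%. The medians were 0.45 in general and 0.12 in niche macrophages, against -0.01 and -0.17 over all tested genes. No gene of the 9 differed between the populations in its metastasis effect by edgeR (0 of 9 with an unadjusted p under 0.05 as well), and 0 of all 12882 genes (0%) passed that test. Of these, 1016 (7.89%) had an unadjusted p under 0.05, and DESeq2, over its own genes, called 558 and limma-voom 0. By edgeR no monocyte, neutrophil or macrophage marker was called with metastasis. At an unadjusted p under 0.05 there were 2 monocyte, 3 neutrophil and 1 macrophage markers in general macrophages, and 3, 3 and 3 in niche macrophages, out of 10, 14 and 12 and beside 5.12% and 12.7% of all tested genes. DESeq2 called 2, 1 and 0 in general and 2, 2 and 2 in niche macrophages, beside 1.54% and 9.92%. Limma-voom called 0, 1 and 0 in general and 0, 0 and 2 in niche macrophages, where it called 23 and 11 of all 12882 genes.

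Per kilobase of exon, which allows levels to be compared between genes, Cd47 was highest of the 9 in all 4 groups, from 257 to 296 CPM per kb. Thbs1 was second in both populations of normal marrow, at 137 ± 3.06 in general and 59.9 ± 10.04 CPM per kb in niche macrophages (SD, n = 3). In metastatic marrow it was the sixth of the 9 in general (44.2 ± 3.86) and the fifth in niche macrophages (18.7 ± 5.32). F13a1 took the second place in general macrophages from metastatic marrow, at 136 ± 23.8 CPM per kb, where it overlapped Tgfbi, the next in order. Plaur was second in niche macrophages from metastatic marrow, at 46.8 ± 14.5, and overlapped Tgfbi there too. Vcan came last in 3 groups, between 0.798 and 2.94 CPM per kb, and overlapped the gene above it in each. In general macrophages from metastatic marrow it reached 26.1 ± 2.42, overlapping F10.

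The spread among libraries of a group differed widely between the genes. As the within-group SD of log2(CPM + 1), it was 0.17 for Cd47, 0.26 for F5 and Thbs1, 0.31 for Plaur, 0.39 for F13a1, 0.61 for Fn1 and 0.70 for Tgfbi. For Vcan it was 1.18 and for F10 1.62. Among 8145 genes averaging 10 CPM or more the median was 1.09. Of these, 0.417% had a smaller spread than Cd47 and 3.04% a smaller one than Thbs1, while 71.5% had a smaller spread than F10.

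Likeness was measured as the mean absolute difference, over the 12 libraries, between log2 levels centred on each gene, among genes averaging 10 CPM or more. The 3 genes nearest to Thbs1 were Cxcr2 (0.40), a chemokine receptor of neutrophils, Gm37347 (0.43), a gene model lying within Il1r2, and Ly6g (0.46), a neutrophil surface marker, where the median gene stood at 1.29. Cxcr2 averaged 413 CPM in general normal, 235 in general metastatic, 219 in niche normal and 99.8 in niche metastatic libraries. Cxcr2 and Ly6g had log2 fold changes with metastasis of -0.81 and -0.69 in general macrophages (edgeR adjusted p = 0.944 for each), and of -1.14 and -0.86 in niche macrophages (0.190 and 0.381). Both had a smaller fitted difference than Thbs1 in either population. Gm37347 averaged 497 CPM in general normal, 116 in general metastatic, 156 in niche normal and 60.7 in niche metastatic libraries, the same order of groups as Thbs1, and was the other gene called with metastasis in general macrophages (-2.10, edgeR adjusted p = 0.0306). That call was lost without any 1 of the 6 libraries. Whether any of these differences departs from that of Thbs1 was not tested.

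Nearest to Fn1 were F13a1 (0.73), Chd1l (0.76) and Gm7809 (0.78), against a median of 2.09. Nearest to F13a1 were Ccr2 (0.47), the chemokine receptor of classical monocytes, Ly6c2 (0.51), a marker of the same cells, and Ahnak (0.56), against a median of 1.57. Ccr2 fell from 1572 ± 127 CPM in general to 264 ± 67.4 CPM in niche macrophages of normal marrow (log2 fold change -2.57 ± 0.32, edgeR adjusted p = 7.76e-05). Its position beside F13a1 is a description over 12 libraries that share their groups.

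**Figure D3:**
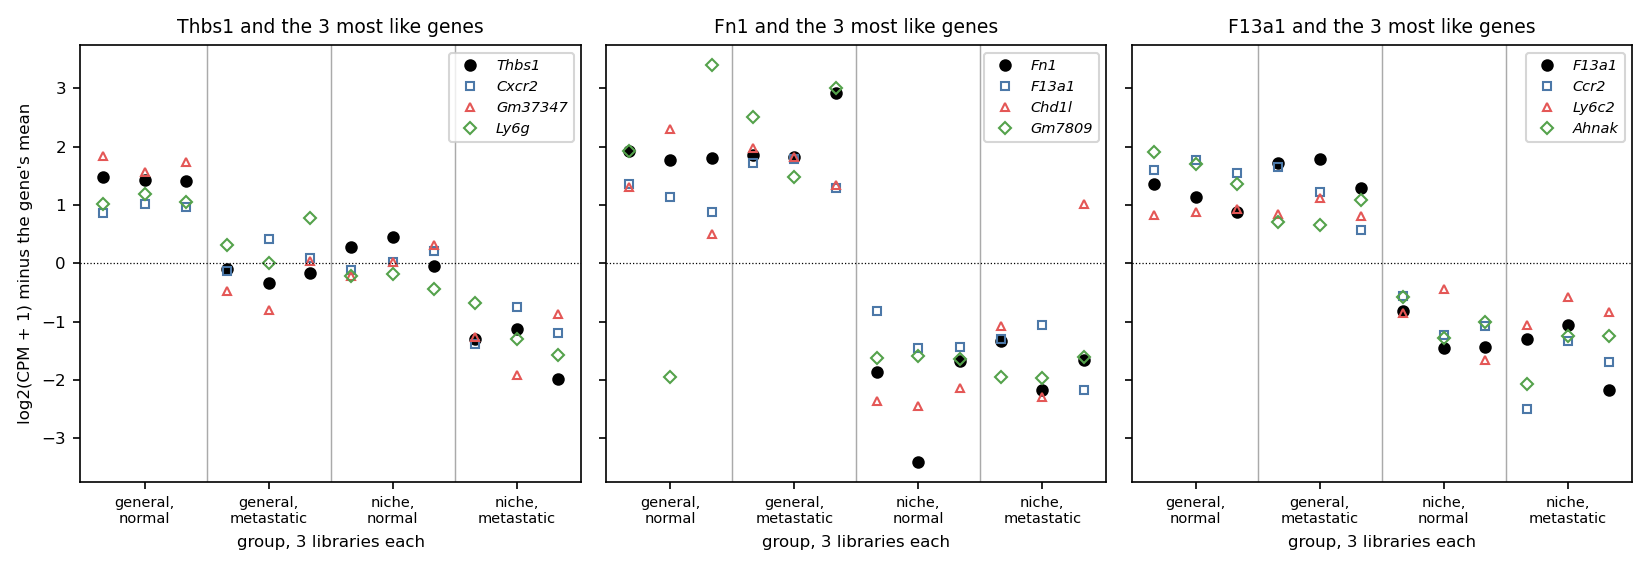
Centred log2 levels over the 12 libraries of Thbs1, Fn1 and F13a1, each with its 3 nearest genes, as points over libraries ordered by group. Thbs1, Cxcr2 and Ly6g are highest in general normal and lowest in niche metastatic libraries, but Thbs1 is higher in niche normal than in general metastatic libraries and the means of the other two are in the opposite order.

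The wider pathways were read from 6 lists holding 139 further genes, of which 72 could be tested. In normal marrow 4 were called higher in niche macrophages, beside 1.5% of all tested genes, and 3 lower, beside 0.97%. In metastatic marrow 1 was called higher, beside 0.574%, and 3 lower, beside 0.256%. None was called with metastasis in either population, nor for the difference of the effects, by edgeR. At an unadjusted p under 0.05 there were 5 in general and 13 in niche macrophages, and 7 for the difference, of 72, beside 5.12%, 12.7% and 7.89% of all tested genes. DESeq2 called 0, 10 and 3, beside 1.54%, 9.92% and 4.31%, and nothing is called particular to these lists from such counts.

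Among receptors and ligands of thrombospondin, 3 of 12 tested rose and 0 fell in niche macrophages of normal marrow, beside 1.5% and 0.97% of all tested genes. They were Itgav, the integrin αV chain that also binds fibronectin, Scarb2, a lysosomal relative of the thrombospondin receptor CD36, and Sirpa, the partner of CD47 on phagocytes. Itgav rose from 101 ± 6.93 to 334 ± 76.1 CPM (log2 fold change 1.73, edgeR adjusted p = 0.00343). Scarb2 rose from 40.5 ± 9.31 to 244 ± 135 CPM (2.59, 0.00549), a call missed with limma-voom (0.0796). Sirpa rose from 328 ± 31.3 to 616 ± 143 CPM (0.91, 0.0439), a call lost without any 1 of the 3 general normal libraries or without niche normal replicate A or B, and lost with RLE scaling (0.0600), no low-count filter (0.0626) and only the groups compared (0.134). The median of the list was 0.85 in normal marrow, beside 0.19 over all tested genes, and in metastatic marrow edgeR called 0 of 12, with 4 at an unadjusted p under 0.05 (8.6% of all tested genes) and 1 called by DESeq2 (4.63%). In normal marrow, then, Thbs1 was called lower and these 3 genes higher, and Cd47 did not pass the test. Of the 12, 7 did not overlap on the higher side, beside 10% of all tested genes, and 1 on the lower, beside 8.78%.

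Of 15 tested coagulation genes, none was called in any comparison by edgeR. In normal marrow 4 had an unadjusted p under 0.05 between the populations, beside 19% of all tested genes, and DESeq2 called 5, beside 16.6%. Both counts were 0 in metastatic marrow, beside 8.6% and 4.63%. Their median niche against general log2 fold change was 1.70 in normal and 0.47 in metastatic marrow, beside 0.19 and 0.04 over all tested genes. In normal marrow 1 of the 15 did not overlap on the higher side, beside 10% of all tested genes, and 2 on the lower, beside 8.78%, and 6 of the 15 averaged under 10 CPM. Among 8 tested genes of plasminogen activation, Anxa2, whose product binds plasminogen and its activator, was lower in niche macrophages of metastatic marrow, at 56.0 ± 8.37 against 233 ± 99.9 CPM (-2.06, edgeR adjusted p = 0.0401). That call was lost without any 1 of the 6 libraries, with the replicate block (adjusted p = 0.0873), limma-voom (0.0982), library size only (0.0907) and RLE scaling (0.05001).

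In the matrix list, 2 of 13 tested genes fell and 0 rose in niche macrophages of either marrow, beside 0.97% of all tested genes called lower in normal and 0.256% in metastatic marrow. Both were the same neutrophil-rich proteases. Mmp9, gelatinase B, went from 2227 ± 284 to 993 ± 171 CPM in normal marrow (-1.17, edgeR adjusted p = 0.00579) and from 1729 ± 419 to 613 ± 88.5 CPM in metastatic marrow (-1.50, 0.000983). Mmp8, the neutrophil collagenase, went from 1422 ± 189 to 608 ± 129 CPM (-1.23, 0.00739) and from 1281 ± 266 to 426 ± 99.1 CPM (-1.59, 0.00120). Mmp8 is also 1 of the 14 neutrophil markers. Without it the other 13 summed to 15402 to 25581 CPM in general and 10975 to 13708 CPM in niche libraries, with 5 called lower in normal and 4 in metastatic marrow, and their part in these calls was not tested. In normal marrow limma-voom missed both (adjusted p = 0.0948 for Mmp9 and 0.0652 for Mmp8). By edgeR no other gene of this list was called. DESeq2 also called Lgals3 and Spp1 lower in niche macrophages of normal marrow, 4 of 13 with the proteases, beside 16.6% of all tested genes, and only the proteases in metastatic marrow. With metastasis DESeq2 called 4 of 13 in niche macrophages, beside 9.92%, with Lgals3, Mmp14 and Spp1 higher and Mmp9 lower, 0 in general macrophages, and Lgals3 for the difference of the effects.

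Receptors of fibronectin, versican and hyaluronan split, with 2 of 17 called higher and 1 lower in niche macrophages of normal marrow, beside 1.5% and 0.97% of all tested genes, and 1 higher and 0 lower in metastatic marrow, beside 0.574% and 0.256%. The 2 higher in normal marrow were Sdc3 and Itgav. Sdc3, a heparan sulfate proteoglycan of the cell surface, rose from 54.5 ± 12.3 to 585 ± 142 CPM in normal (3.43, edgeR adjusted p = 2.3e-05) and from 26.3 ± 3.21 to 314 ± 171 CPM in metastatic marrow (3.58, 1.97e-05). Cd44, the main hyaluronan receptor of leukocytes, fell from 1352 ± 235 to 658 ± 125 CPM in normal marrow (-1.04, 0.0144), a call lost without general normal replicate 2 or niche normal replicate C. Of 13 tested TGF-beta genes none was called in any comparison by edgeR, and DESeq2 called 2, with metastasis in niche macrophages (9.92% of all tested genes). At an unadjusted p under 0.05 there were 0 between the populations in normal and 1 in metastatic marrow, beside 19% and 8.6%. The median of these genes was 0.53 in normal and 0.07 in metastatic marrow for niche against general macrophages.

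**Figure D4:**
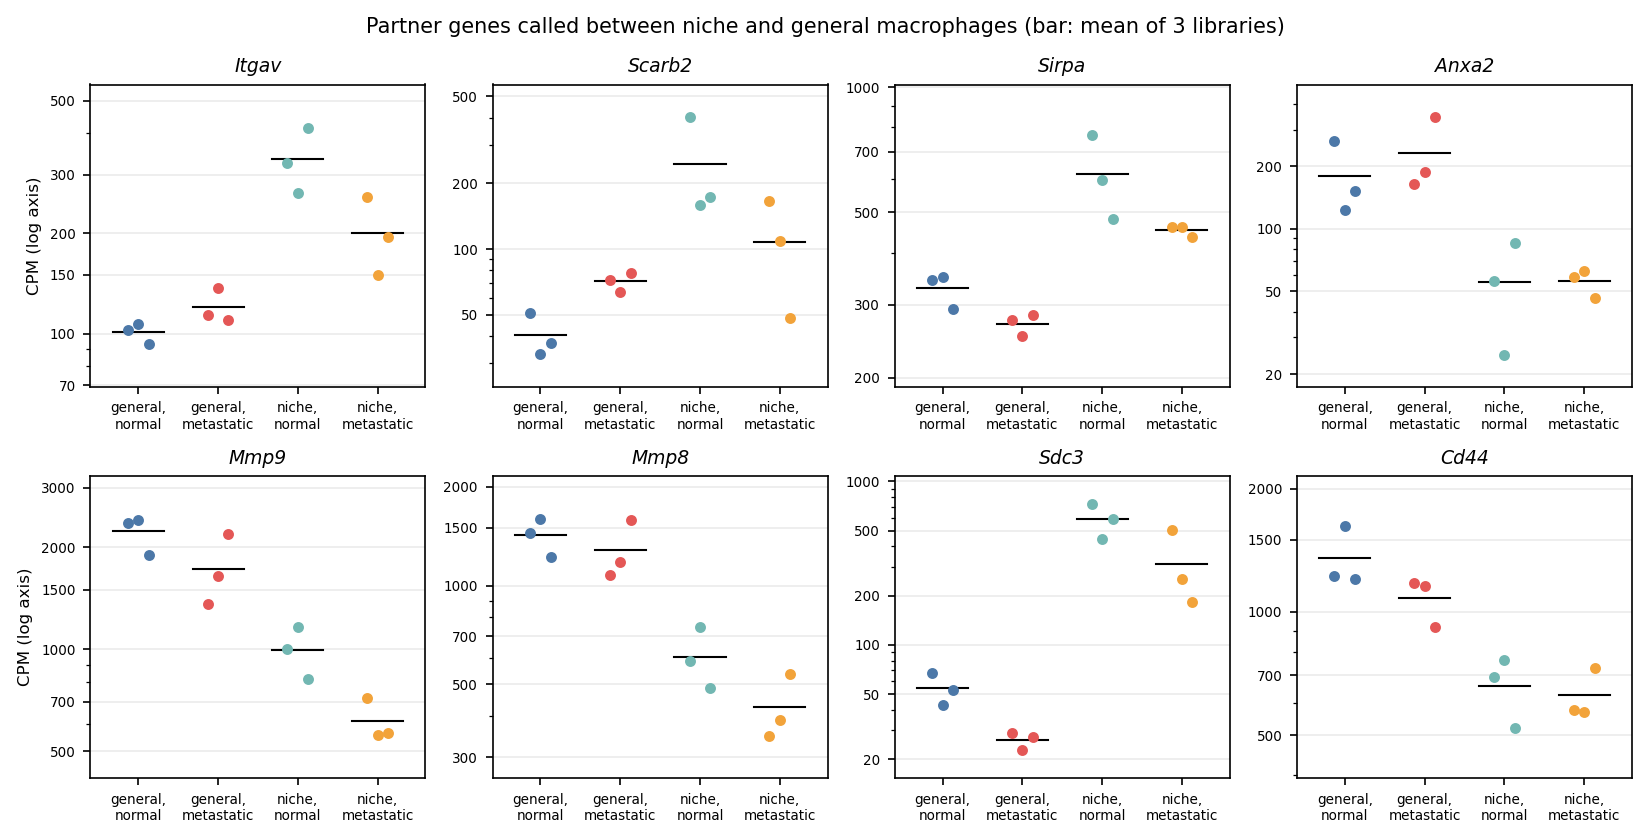
Level of the 8 further pathway genes called between the populations, in CPM on a log axis, one point per library and a bar for each group mean. Sdc3 lies between 441 and 726 CPM in niche macrophages of normal marrow and between 42.9 and 67.4 CPM in general ones, while Mmp8 and Mmp9 lie the other way.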

How the data were processed

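RNA sequencing of 12 sorted macrophage libraries was used. The authors deposited 1 table of expected counts for 18467 gene symbols, with no normalization, as judged from the values, of which 73.9% were exactly whole (no tolerance). The submitters' processing notes name STAR 2.7.3a, Partek, DESeq2 1.40.2, R 4.3.1 and mm10, without roles; the annotation and strandedness are not given in the sources used here. Ribosomal RNA was depleted, per the labels' protocols.

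Counts were rounded and filtered with filterByExpr (12882 genes), and scaled by TMM. The quasi-likelihood test of edgeR 4.0.16 (R 4.3.3) used 1 model of the 12 libraries with a mean for each of the 4 groups. Benjamini-Hochberg adjustment covered every gene tested, and a gene is called at an adjusted p under 0.05. Standard errors come from the F statistic, and 95% intervals are unadjusted. The common biological coefficient of variation was 1.30. Totals of 13687957 to 30332442 counts set the precision of low levels. No pair of libraries agreed within sampling noise (chi-square per degree of freedom from 139 to 411), so each was counted once. The p-values measure the spread between libraries described as different mice.

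The 9 genes and all lists were chosen with earlier results of these data known. Differences already seen (Thbs1 with metastasis, and Fn1 and F13a1 between populations in metastatic marrow) are given without a p-value. Named in the text are the 9 genes, up to 3 called genes per pathway list and comparison with a mean of at least 10 CPM, any called pathway gene in a count of 5 or fewer, and the 3 genes nearest to Thbs1, Fn1 and F13a1. Lists cover thrombospondin partners, coagulation, plasminogen, matrix, matrix receptors and TGF-beta, and 1 gene first listed there is not reported here. Gene positions and exon lengths are from GENCODE for GRCm38, which matched 18026 symbols, and promoters from RefSeq. Alternatives were other scalings, filters, DESeq2 1.42.0, limma 3.58.1, robust dispersion, only the groups compared, a replicate block, removal of 134 abundant noncoding and blood-protein genes, and leaving out each library. The fit was also run on simulated counts. Its check on recovery was set only at a spread below that of these data, so it does not speak of recovery here.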

Additional observations from a re-analysis of the deposited data

How the results depend on the processing

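The lowest libraries of F10 and Vcan held 4 and 30 counts, and the part of depth in their spread was not tested. Over the log2 fold changes recomputed, 26 values changed sign and 332 kept direction and side of the threshold on leaving out 1 library, and 7 and 470 did under the other alternatives. Calls were lost or gained in the same direction in the rest.

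In normal marrow, members called lower went from 4 to 2 with limma-voom and ranged from 3 to 6 on leaving out 1 library. In metastatic marrow they ranged from 2 to 3. With metastasis in general macrophages, members called higher went from 0 to 1 (Vcan) with limma-voom and with only the groups compared. Members called lower there went from 1 to 0 with library size only and in each fit without 1 library, from 0 to 0. In niche macrophages, members called higher went from 0 to 1 (Tgfbi) with DESeq2 and ranged from 0 to 1 on leaving out 1 library (Vcan, without niche normal replicate A). Members called lower there went from 1 to 0 with RLE scaling, with library size only and with only the groups compared, and ranged from 0 to 1 on leaving out 1 library. The cause was not tested.

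Sign changes under another setting were these. In metastatic marrow the niche against general value of Cd47 was 0.17 with library size only, which moved the median of all genes by 0.25 there, and by 0.23 for niche macrophages with metastasis and for the difference of effects. The metastasis change of F10 in niche macrophages was -0.000352 with no low-count filter. For the difference of effects, Thbs1 was 0.014 with RLE scaling, 0.16 with library size only, 0.12 with at least 10 counts in every library and 0.016 with DESeq2, and Cd47 was -0.001725 with limma-voom.

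On leaving out 1 library, the niche against general value of F10 in normal marrow ranged from -0.60 to 1.30 and that of Cd47 in metastatic marrow from -0.23 to 0.036. For the metastasis change in general macrophages, Fn1 ranged from -0.015 to 0.65, Cd47 from -0.034 to 0.22 and Plaur from -0.36 to 0.10. In niche macrophages F13a1 ranged from -0.48 to 0.022, F10 from -0.58 to 0.46 and Plaur from -0.20 to 0.21. For the difference of effects, Thbs1 ranged from -0.23 to 0.16, Fn1 from -0.38 to 0.58, Vcan from -2.18 to 1.22, Cd47 from -0.080 to 0.14 and Plaur from -0.034 to 0.44. Values that kept their sign but moved by over 1.5 times included the metastasis change in niche macrophages of Fn1 (0.082 to 0.78) and F5 (0.23 to 0.62), the population difference of F5 in metastatic marrow (-0.58 to -0.29), and the difference of effects of F13a1 (-0.97 to -0.46), F10 (-2.52 to -0.61) and Tgfbi (0.53 to 1.77).

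Over all genes, 318 calls between populations in normal marrow became 2167 with DESeq2, 186 with limma-voom and 163 with only the groups compared, and 176, 178 and 184 without general normal replicate 1, 2 and 3. The 107 in metastatic marrow became 628 with DESeq2, 178 with limma-voom, 66 without niche metastatic replicate 1 and 70 without general metastatic replicate 2. With metastasis the 2 calls in general macrophages became 205 with DESeq2, 23 with limma-voom, 5 with no low-count filter and 0 with library size only or without any 1 library. The 1 call in niche macrophages became 1326 with DESeq2, 11 with limma-voom, 4 with robust dispersion, 3 with either other filter, 2 with the 134 genes removed and 0 with either other scaling or only the groups compared, and ranged from 0 to 66 on leaving out 1 library. For the difference of effects 0 calls became 558 with DESeq2 and ranged from 0 to 16 on leaving out 1 library. Of the further pathway genes, the 7 called in normal marrow became 25 with DESeq2 and 4 with limma-voom. With metastasis 0 became 10 with DESeq2 in niche macrophages.

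Replicate numbers are shared by 3 groups. Deviations of same-numbered libraries correlated between -0.004 and 0.033, and those of differently numbered ones between -0.036 and 0.024. Whether the numbers pair the samples cannot be told from correlations this near 0. With the replicate block, members called lower with metastasis in general macrophages were 0 in place of 1, and 1 gene of all was called in place of 2. In metastatic marrow the block left 103 calls in place of 107 and 3 members called lower, and Anxa2 was no longer called (adjusted p = 0.0873).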
